A study of Homo sapiens with 26 samples.

Results

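Genes of retinoic acid binding, reception and turnover were followed in KELLY, an established cell line from a human neuroblastoma in which MYCN is amplified. They were 10 of the 26485 genes in the deposited tables, found by their symbols. CRABP1 and CRABP2 encode binding proteins, RARA, RARB and RARG the retinoic acid receptors, RXRA and RXRB their partners, and DHRS3, CYP26A1 and CYP26B1 enzymes of turnover. The group is defined by function. Within it CRABP2 was chosen by its measured level, which was higher with both hairpins, so its values in the 2 hairpin lines are a description and carry no test.

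A lentiviral vector with a GFP marker, switched on by doxycycline, was either empty (EV) or expressed 1 of 2 short hairpin RNAs that target RUNX1T1 (sh4 and shAMB). Each of the 3 resulting lines was kept for 72 h with DMSO or doxycycline, with 3 libraries per group. A further 8 libraries came from KELLY tumors grown in mice that lack their own lymphocytes (NSG), 4 labelled control and wild type from animals on control food, and 4 labelled RUNX1T1 KO from animals on doxycycline food. According to the methods the grafted cells carried an inducible hairpin, so KO is used below only as the name of that group. The labels do not name the hairpin of the tumors. The study describes its first hairpin, designed from an Ambion siRNA, as the one used in animals. In the culture tables the words Neg and Pos mark the treatment, and they were taken to mean DMSO and doxycycline. If they were exchanged, all directions given for cultured cells would turn. CRABP2, CYP26B1 and MYCN were higher in the Pos libraries of both hairpin lines and also in the KO tumors, whose groups are labelled separately. For CRABP2 the direction in culture is the one by which it was chosen, and the reading of the 2 words was not tested. Nothing in the labels shows whether replicates were separate cultures, so the p-values measure only the spread between these libraries.

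Retinoic acid is made from vitamin A and acts inside the nucleus. CRABP2 carries it to the receptors, whereas CRABP1 is best known for holding it in the cytoplasm and passing it to breakdown. A retinoic acid receptor (RAR) paired with a retinoid X receptor (RXR) sits on DNA at 2 short half-sites in the same orientation, recruits corepressors when empty and coactivators when filled. CYP26 enzymes oxidize and remove the ligand, and DHRS3 turns its precursor retinal back to retinol. In neuroblastoma, retinoic acid drives differentiation and is used in the clinic, and RARB and CYP26A1 are the textbook genes that it switches on.

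The library totals ran from 35115915 to 54736733 expected counts in culture and from 47346063 to 62378060 in tumors. Levels are given as counts scaled to the library total adjusted by a normalization factor (CPM). They are given per kilobase (CPM per kb) where genes are set side by side. RUNX1T1 averaged 34.3 ± 0.898 CPM with DMSO and 31.8 ± 1.94 with doxycycline in sh4, 40.9 ± 1.04 and 42.5 ± 1.41 in shAMB, 41.9 ± 2.41 and 37.7 ± 1.05 in EV (SD, n = 3), and 35.5 ± 5.51 in control and 30.2 ± 5.19 in KO tumors (SD, n = 4). None of these 4 differences passed the test (log2 fold change −0.11 ± 0.05, 0.06 ± 0.05, −0.16 ± 0.05 and −0.23 ± 0.15, SE). In shAMB all 3 doxycycline libraries lay above the DMSO mean, against what the label would lead one to look for, and every direction below is therefore one between libraries labelled doxycycline and DMSO, or KO and control. MYCN RNA rose 1.60-fold in sh4, 2.97-fold in shAMB and 2.76-fold in tumors. All 8 markers of adrenergic neuroblastoma were detected in every group, their summed level running from 1192 to 1790 CPM in culture and from 824 to 1354 CPM in tumors. Of 13 markers of host fibroblasts, vessels, blood and immune cells, HBA1 and HBB were at 0 throughout and the summed level was 49.6 to 83.1 CPM in control and 77.9 to 118.5 CPM in KO tumors, beside 71.4 to 132.8 CPM in cultures, which hold no host cells. Its part in the tumor results was not tested. In bulk RNA, fewer cells of a type and less RNA per cell cannot be told apart.

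The libraries also differed in how strongly GC-rich transcripts were represented. With genes ranked by GC content and split into 5 bins, the GC tilt of a library is the median log2 deviation of the highest bin minus that of the lowest. In shAMB it was −0.67 to −0.32 with DMSO and 0.07 to 0.55 with doxycycline, without overlap. In sh4 the third doxycycline library stood at 0.55 and the other two at −0.47 and −0.27, while the DMSO libraries ran from −0.02 to 0.64. In tumors it was −0.57 to 0.24 in control and −0.59 to 0.59 in KO. RARA (61.9% GC), RXRA (60.6%), RARG (60.2%), RXRB (58.4%) and CRABP1 (57.2%) lie above the lower limit of the highest bin (57.1%), and RARB (40.2%) just below the upper limit of the lowest (40.3%). The part of the tilt in each result was not tested. Fold changes with the trends in GC content and length taken out were computed for the members only. They are given below where they change the call or direction of a member in the doxycycline and tumor comparisons. The fold changes of single pathway genes below have no such value beside them.

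The upstream sequences of 4 of the genes are shown: those of RARB and CYP26A1 because they hold the classical repeat, and those of CRABP2 and CYP26B1 because these genes had the largest fold changes in tumors. No test below uses them. A retinoic acid response element of the classical kind is a direct repeat with 5 bases between its half-sites. Half-sites were searched on both strands as the consensus AGGTCA, as its common variant AGTTCA, as the variant GGTTCA found in RARB, and as the variant GGGTCA, in windows from 250 bases before to 50 after each annotated start (RefSeq, GRCh38.p14). Of 35116 such windows 31 held the repeat (0.0883%), and among the 20 windows of the 10 genes it was found in 1 of RARB and 1 of CYP26A1. The RARB repeat ends 36 bases before the start and the CYP26A1 repeat, which reads on the opposite strand, ends 73 bases before it. Both fall inside exons of other annotated transcripts, so only the repeat (capitals) with 6 bases on each side is shown, on the gene's own strand.
RARB, chr3:25428204-25428232, plus strand: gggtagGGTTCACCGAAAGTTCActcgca
CYP26A1, chr10:93073797-93073825, plus strand: taaagaTGAACTTTGGGTGAACTaattgt

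No window of the 10 genes held such a repeat with 2 bases or 1 base between the half-sites, which 0.0399% and 0.131% of all windows did. The upstream sequences of CRABP2 and CYP26B1, described next, are shown for comparison. Neither holds a direct repeat of the searched letters. In CRABP2 the capitals mark 1 single half-site and 1 CATCTG, a member of the E-box family bound by basic helix-loop-helix factors. They were found, on either strand, in 38.6% and 14.7% of all windows. CACGTG, the canonical E-box, was in 7.26% of windows and in a window of RARA and of CYP26A1. The motifs do not overlap in the printed sequences. A match is a description of letters and not a bound site.
CRABP2, chr1:156705817-156706034, minus strand: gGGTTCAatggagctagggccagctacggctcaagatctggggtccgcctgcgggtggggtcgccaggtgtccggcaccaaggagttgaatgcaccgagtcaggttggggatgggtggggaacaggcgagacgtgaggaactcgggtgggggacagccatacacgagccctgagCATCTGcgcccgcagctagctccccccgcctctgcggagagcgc
CYP26B1, chr2:72147863-72148112, minus strand: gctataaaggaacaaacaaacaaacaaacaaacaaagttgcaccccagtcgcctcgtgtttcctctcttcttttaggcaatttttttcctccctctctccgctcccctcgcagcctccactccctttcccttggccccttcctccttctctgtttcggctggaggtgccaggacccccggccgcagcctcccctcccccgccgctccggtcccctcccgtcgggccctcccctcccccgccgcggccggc

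CRABP2 (chr1:156699606-156705816, minus strand) had the largest fold change of the 8 genes that passed the filter on low counts, in the comparisons of sh4, shAMB and tumors. With sh4 it read 10.3, 10.6 and 10.7 CPM in the DMSO libraries and 40.3, 44.5 and 53.0 CPM in the doxycycline libraries, a 4.35-fold higher mean. With shAMB it read 8.16, 6.81 and 9.92 CPM with DMSO and 48.6, 48.9 and 48.9 CPM with doxycycline, a 5.88-fold higher mean. The induced libraries of both lines lay far above every uninduced one, and they reached a similar level (45.9 ± 6.47 and 48.8 ± 0.187 CPM, SD, n = 3). These contrasts chose the gene and are not evidence for it. With the empty vector, where it could be tested, CRABP2 read 6.11, 7.47 and 9.20 CPM with DMSO and 6.93, 8.33 and 7.52 with doxycycline, a log2 fold change of 0.00 with a 95% interval of −0.31 to 0.32.

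The tumor libraries are not those whose values are named in the choice of CRABP2, although results of the whole series were known when the genes were listed. CRABP2 read 7.15, 7.25, 12.4 and 12.0 CPM in control and 43.5, 37.1, 43.1 and 33.1 CPM in KO tumors. The groups did not overlap and the gene rose 4.04-fold (log2 fold change 2.01 ± 0.20, SE, adjusted p = 4.01e-05, edgeR). The value was 1.86 to 2.15 when any 1 tumor was left out and 2.20 after removal of GC and length trends.

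CRABP1 (chr15:78340353-78348225, plus strand), the paralog, was by far the most abundant of the 10 genes per length, at 80.9 ± 15.0 CPM per kb in EV with DMSO (SD, n = 3). It behaved differently in the hairpin lines. With shAMB it read 80.2, 69.2 and 88.8 CPM with DMSO and 230.6, 262.9 and 256.7 CPM with doxycycline. The groups did not overlap and CRABP1 rose 3.15-fold (1.65 ± 0.14, adjusted p = 6.82e-08). With sh4 the values were 99.8, 89.7 and 79.3 CPM against 83.8, 96.6 and 120.5 CPM. These overlapped and did not pass the test (0.16 ± 0.14, adjusted p = 0.372). The effect of sh4 was smaller than that of shAMB by 1.49 ± 0.20 on the log2 scale (adjusted p = 1.25e-05). After removal of GC and length trends CRABP1 also passed in sh4 (0.53), and the difference between the hairpins was −0.84.

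In tumors CRABP1 read 104.3, 91.0, 154.0 and 128.3 CPM in control and 163.1, 223.8, 244.6 and 149.6 CPM in KO. The fourth KO tumor lay below the third control tumor, and the gene rose 1.63-fold (0.71 ± 0.19, adjusted p = 0.0124), a call that was lost when the third KO tumor was left out (0.57, adjusted p = 0.0508). Since strand use in counting is not given, 45.9% of the CRABP1 exon bases, which an annotated gene on the other strand also covers, could carry reads of that gene.

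The ratio of the 2 binding proteins sets their levels side by side within each library. On the CPM per kb scale CRABP1 exceeded CRABP2 by 3.34 to 3.80 log2 units in all 12 culture libraries without an induced hairpin. The ratio was 1.51 to 1.64 in sh4 and 2.70 to 2.88 in shAMB with doxycycline, and neither range met the uninduced one. These ratios hold the CRABP2 values that chose the gene, so in the hairpin lines they are a description and carry no test. CRABP1 itself did not pass in sh4. In tumors it was 3.87 to 4.32 in control and 2.36 to 3.04 in KO, again without overlap.

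The receptors are described next, beginning with the RAR genes. RARA (chr17:40309180-40357643, plus strand) is the broadly expressed form. With shAMB it read 13.1, 11.1 and 13.2 CPM with DMSO and 17.9, 19.3 and 21.0 CPM with doxycycline, without overlap. It was 1.56-fold higher (0.64 ± 0.22, adjusted p = 0.0200), but after removal of GC and length trends its log2 fold change was −0.13 (adjusted p = 0.0572), and without the second DMSO or the third doxycycline library of shAMB it did not pass (0.56 and 0.58). With sh4 the values were 25.8, 20.3 and 16.6 CPM against 11.4, 13.1 and 23.7 CPM. The third doxycycline library, with its high GC tilt, stood near the DMSO group (−0.38 ± 0.22, adjusted p = 0.184). Without it RARA fell by 0.77 on the log2 scale (adjusted p = 0.00131). After removal of GC and length trends the sh4 value was −0.15 (adjusted p = 0.0315). In tumors RARA was 17.3 ± 4.27 and 16.0 ± 5.73 CPM (SD, n = 4) in overlapping groups and did not pass (−0.11 ± 0.26, adjusted p = 0.761, −0.25 and adjusted p = 0.0464 after that removal). Antisense genes cover 21.4% of its exon bases.

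RARG (chr12:53210567-53232980, minus strand), the form known from skin and early embryos, passed the test in the sh4 line. It read 11.9, 9.99 and 8.03 CPM with DMSO and 13.0, 15.3 and 20.8 CPM with doxycycline. The groups did not overlap and RARG rose 1.64-fold (0.71 ± 0.18, adjusted p = 0.00572). The sh4 effect did not exceed that of the empty vector past the threshold (0.49 ± 0.27, adjusted p = 0.164), where RARG was 6.35 ± 1.39 and 7.35 ± 0.695 CPM (SD, n = 3). After removal of GC and length trends that difference was 0.96 and passed. With shAMB the means were 7.24 ± 0.875 and 7.35 ± 0.719 CPM (SD, n = 3). The difference of 0.02 became −0.61 after that removal and then passed (adjusted p = 1.16e-07, edgeR). The sh4 and shAMB effects differed by 0.69 ± 0.26 (adjusted p = 0.0341), a call lost without 1 of 7 libraries (replicate 2 or 3 of sh4 with DMSO, 3 of sh4 with doxycycline, 1 or 3 of shAMB with DMSO, or 1 or 2 of shAMB with doxycycline).

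RARB (chr3:24687887-25597932, plus strand), the classical retinoic acid target with the repeat shown above, was scarce. It had 16 to 41 counts per culture library and 103 to 158 per tumor library. With shAMB it read 0.591, 0.988 and 0.749 CPM with DMSO and 0.403, 0.507 and 0.508 CPM with doxycycline, without overlap. RARB fell by 0.71 on the log2 scale (SE 0.23, adjusted p = 0.0127), a call lost without the second DMSO library (−0.50). Its effect lay below that of the empty vector by 1.14 ± 0.33 (adjusted p = 0.0105) and below that of sh4 by 1.18 ± 0.31 (adjusted p = 0.00471). With sh4 it read 0.557, 0.531 and 0.661 against 0.968, 0.740 and 0.712 CPM, higher in 3 of 3 libraries without passing (0.47 ± 0.22, adjusted p = 0.0976). In tumors its level, 2.22 ± 0.262 CPM in control and 2.38 ± 0.556 CPM in KO (SD, n = 4), lay above every cultured library, although the tables were made separately and no test joins them. The 2 tumor groups overlapped (adjusted p = 0.733).

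Within the receptor family the balance changed in opposite directions in the 2 lines. RARG made up 36.9 ± 0.672% of the summed RAR level per kb with DMSO and 55.4 ± 3.32% with doxycycline in sh4, and 40.4 ± 1.23% and 31.6 ± 0.479% in shAMB (SD, n = 3). RARA took the complementary course, from 60.9 to 41.8% in sh4 and from 55.3 to 66.4% in shAMB. Neither share overlapped between the groups of a line. In EV the RARG share was 31.9 ± 1.45% and 31.2 ± 1.08%, and in tumors 29.2 ± 1.37% and 32.3 ± 3.36% with overlap. RARB held 1.66 to 6.05% of the sum in culture.

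RXRB (chr6:33193588-33200665, minus strand) was the more abundant partner receptor in culture. With sh4 it read 51.3, 44.5 and 42.1 CPM with DMSO and 27.3, 30.1 and 39.2 CPM with doxycycline, without overlap, and fell by 0.52 on the log2 scale (SE 0.13, adjusted p = 0.00421). This effect lay below that of the empty vector by 0.73 ± 0.18 (adjusted p = 0.00597). With shAMB the values were 35.1, 30.9 and 34.0 against 26.3, 29.3 and 30.6 CPM. They did not overlap but did not pass (−0.22 ± 0.13, adjusted p = 0.151). They passed with RLE normalization (−0.29, adjusted p = 0.0412), with DESeq2 (adjusted p = 0.0322) and after removal of GC and length trends (−0.72). In tumors RXRB read 22.2, 26.7, 28.6 and 25.6 CPM in control and 20.1, 14.0, 16.1 and 13.4 CPM in KO, and fell by 0.70 (SE 0.14, adjusted p = 0.00304) without overlap. SLC39A7 on the other strand covers 9.26% of its exon bases.

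RXRA (chr9:134317098-134440585, plus strand) went the other way where it passed. In tumors it read 16.5, 23.6, 25.5 and 21.8 CPM in control and 54.2, 40.6, 43.8 and 29.1 CPM in KO. The groups did not overlap and RXRA rose 1.92-fold (0.94 ± 0.19, adjusted p = 0.00231, 0.80 after removal of GC and length trends). With shAMB it read 25.0, 20.9 and 22.5 CPM against 29.3, 33.0 and 34.9 CPM, 1.42-fold higher without overlap (0.51 ± 0.16, adjusted p = 0.0103). That direction turned after removal of GC and length trends, where RXRA was lower (−0.23, adjusted p = 0.00392). With sh4 the groups overlapped (0.06 ± 0.16, adjusted p = 0.800), and without the third doxycycline library the value was −0.20. After removal of GC and length trends it was 0.23 (adjusted p = 0.00435).

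The ratio of RXRA to RXRB compares genes of similar GC content within a library. Their deposited lengths differ (5551 and 2559 bases), and the ratio was not computed after removal of GC and length trends. On the CPM per kb scale it was −1.82 to −1.49 log2 units in the 12 uninduced or empty vector culture libraries, −1.33 to −1.02 in sh4 and −0.96 to −0.93 in shAMB with doxycycline. In tumors it was −1.54 to −1.29 in control and 0.01 to 0.42 in KO. RXRB was thus the more abundant in every culture library and every control tumor, and RXRA in the 4 KO tumors, by the least in the fourth. The summed RXR level per kb did not separate the groups (14.0 ± 1.74 in control and 13.8 ± 3.00 in KO tumors, SD, n = 4).

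**Figure D1:**
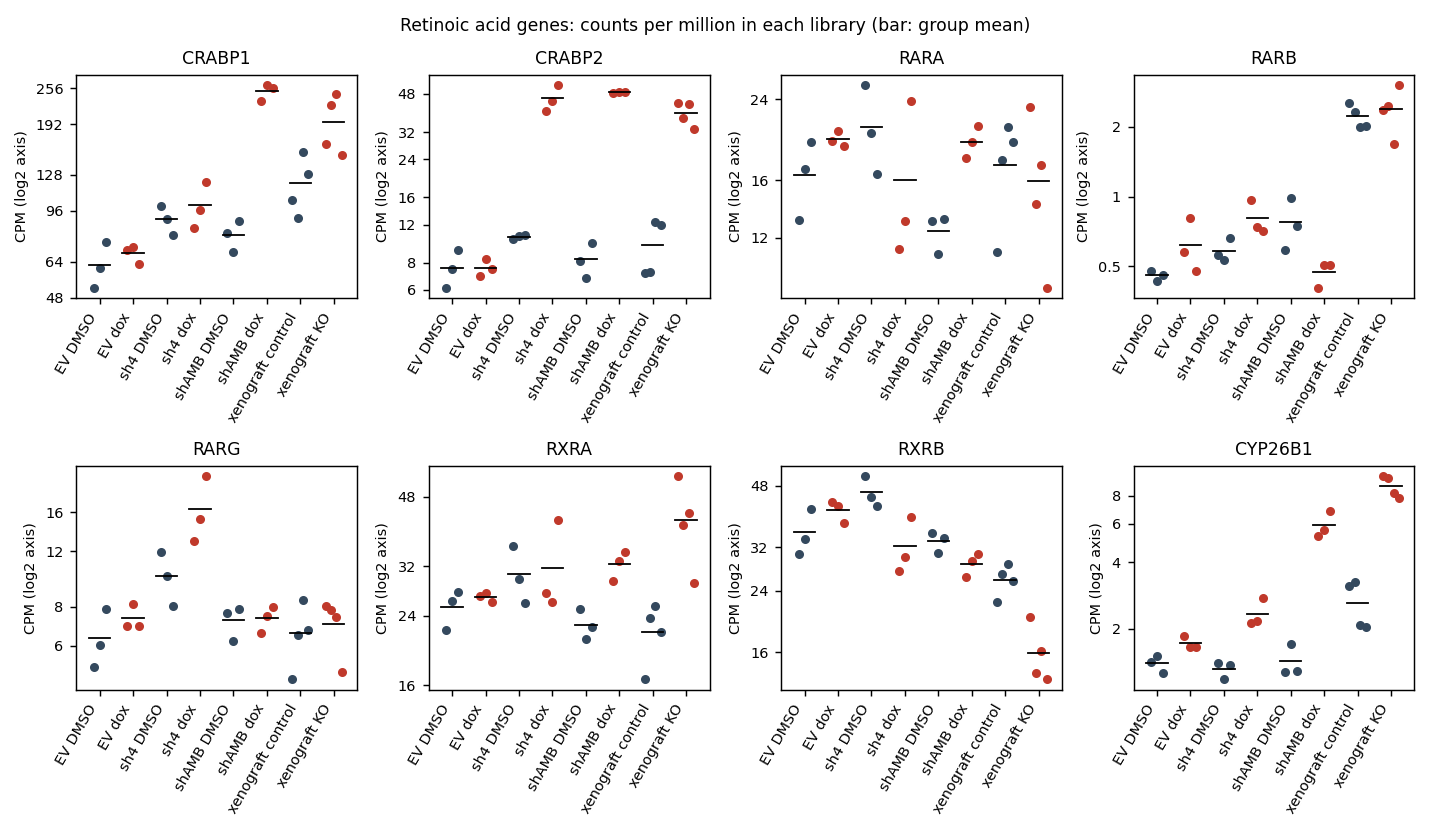
Each panel shows 1 gene in CPM on a log2 axis, with 1 point per library (dark, DMSO or control, red, doxycycline or KO) and a bar for the group mean (n = 3 in culture, n = 4 in tumors). CRABP2 and CYP26B1 with an induced hairpin or in KO tumors lie above all their DMSO or control libraries, CRABP1 only in shAMB among the culture lines, and RXRB lies below its own controls in sh4, shAMB and KO tumors.

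**Figure D2:**
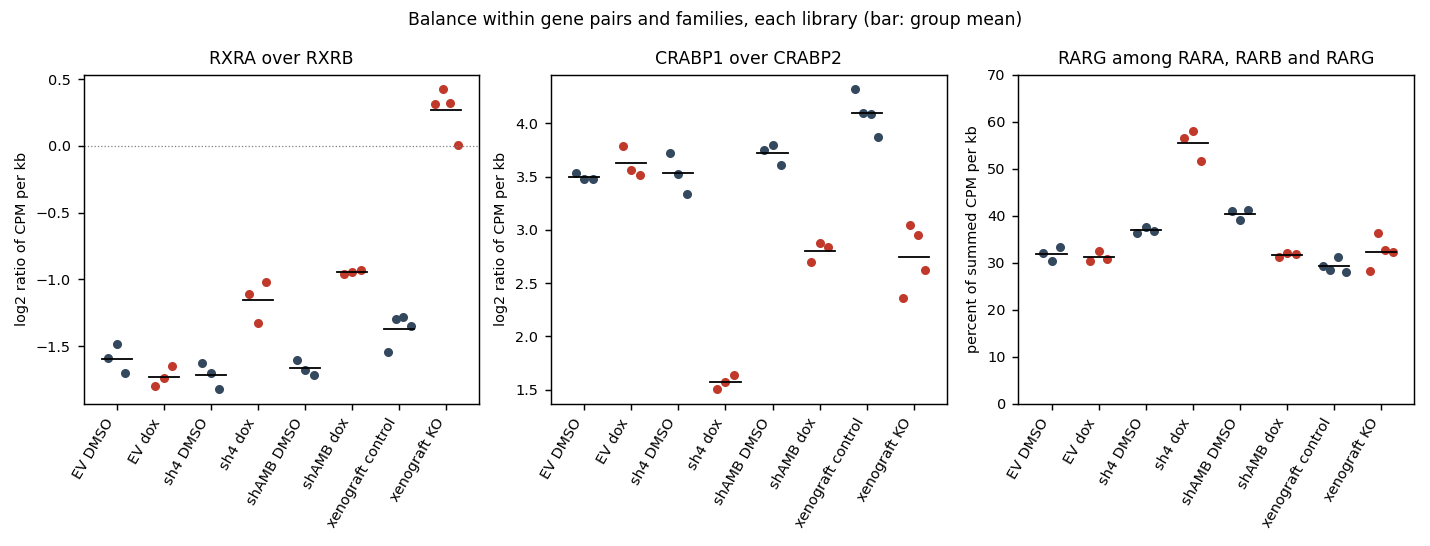
The left and middle panels show the log2 ratio of CPM per kb of RXRA to RXRB and of CRABP1 to CRABP2, and the right panel the percent of RARG in the summed level of RARA, RARB and RARG, with 1 point per library and a bar for the group mean. The RXRA to RXRB ratio exceeds 0 only in the 4 KO tumors, and the RARG share is highest in sh4 with doxycycline. The CRABP1 to CRABP2 ratio in sh4 and shAMB holds the values that chose CRABP2 and is a description there.

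Of the turnover enzymes CYP26B1 alone was expressed. CYP26B1 (chr2:72129238-72147862, minus strand) clears retinoic acid in several embryonic tissues. With shAMB it read 1.28, 1.72 and 1.28 CPM with DMSO and 5.26, 5.60 and 6.81 CPM with doxycycline, and rose 4.12-fold (2.04 ± 0.15, adjusted p = 1.07e-08). With sh4 it read 1.40, 1.18 and 1.37 against 2.13, 2.16 and 2.75 CPM, and rose 1.78-fold (0.83 ± 0.15, adjusted p = 0.000387). Neither line showed overlap. In tumors it read 3.14, 3.27, 2.08 and 2.04 CPM in control and 9.85, 9.69, 8.27 and 7.80 CPM in KO, and rose 3.39-fold (1.76 ± 0.20, adjusted p = 8.15e-05).

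CYP26B1 and CRABP2 were thus the members that passed, or in the case of CRABP2 were chosen, in both lines and in tumors. With the empty vector CYP26B1 was 1.40 ± 0.122 and 1.72 ± 0.112 CPM (SD, n = 3), without overlap but not past the threshold (0.30 ± 0.16, adjusted p = 0.672). The shAMB effect exceeded the empty vector effect by 1.74 ± 0.22 (adjusted p = 9.25e-06), whereas for sh4 the difference of 0.53 ± 0.22 did not pass (adjusted p = 0.0769) except after removal of GC and length trends (0.80, adjusted p = 0.00761). The sh4 effect was smaller than the shAMB effect by 1.21 ± 0.21 (adjusted p = 0.000174). None of the tumor calls on CRABP2, CYP26B1, RXRA and RXRB was lost when any 1 tumor was left out.

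CYP26A1 (chr10:93073475-93077885, plus strand), the enzyme whose window holds the repeat shown above, was near 0. It had 0 to 5 counts per library in all 26 libraries, the highest being the second shAMB library with doxycycline, and 0 in all 3 libraries of EV with DMSO. DHRS3 (chr1:12567910-12618210, minus strand) likewise had 0 to 5 counts per library. A library at 0 allows a level of up to 0.0537 to 0.0865 CPM (3 counts, covering counting error only). Neither gene passed the filter on low counts, and differences between groups were not detectable at this depth.

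**Figure D3:**
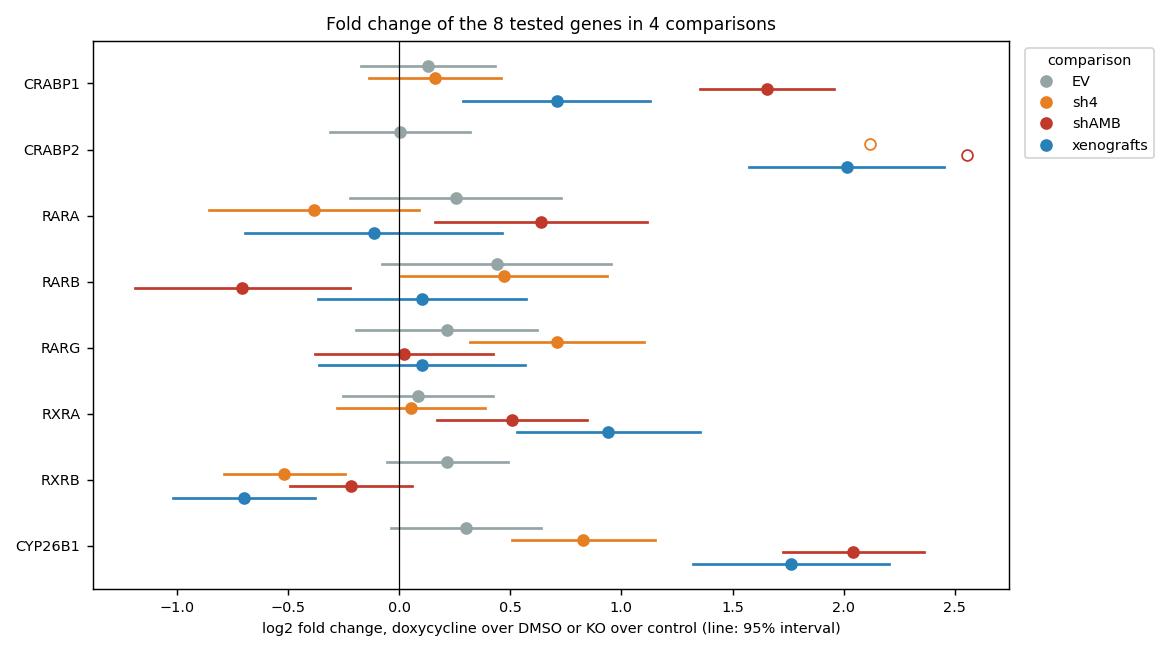
Points are log2 fold changes (doxycycline over DMSO, or KO over control) of the 8 genes that passed the filter, with lines for 95% intervals. Open circles mark CRABP2 in sh4 and shAMB, which were used to choose it and carry no interval. All empty vector intervals include 0, and CYP26B1 lies right of 0 in the other 3 comparisons.

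**Figure D4:**
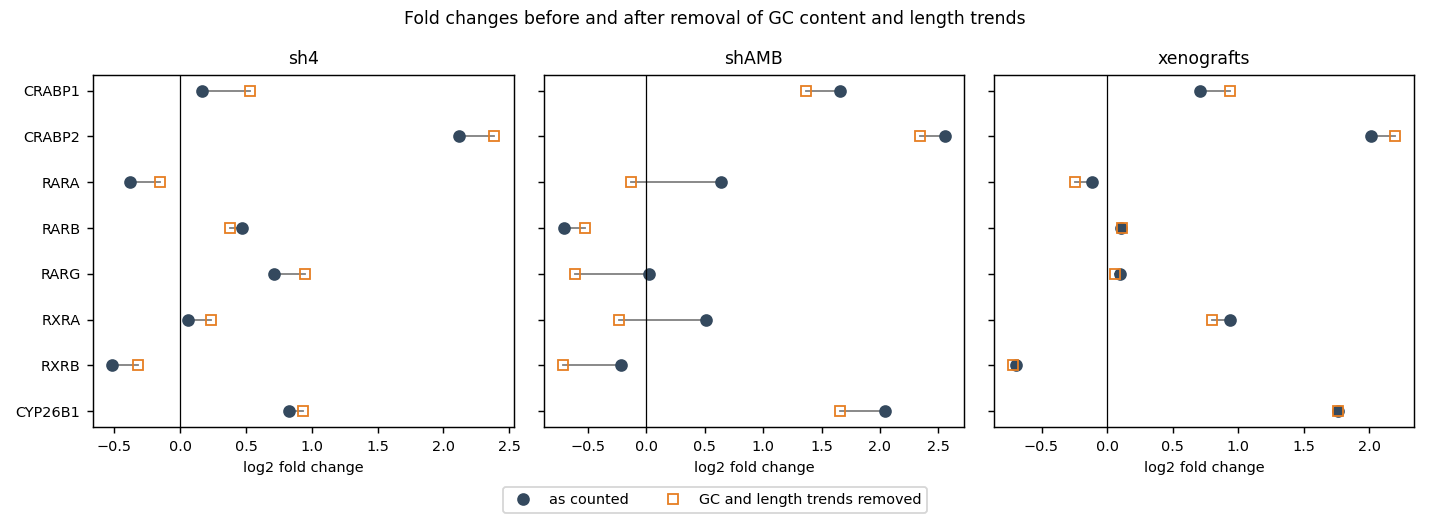
Filled points are log2 fold changes as counted and open squares those with GC and length trends taken out, for the 8 tested genes in sh4, shAMB and tumors. In shAMB RARA, RXRA and RARG cross 0, whereas CRABP2, CRABP1 and CYP26B1 stay between 1.37 and 2.56.

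Counted together, 4 of the 8 tested genes passed in sh4 (3 higher, 1 lower), beside 40.9% of all genes tested there (22.9% higher, 18% lower). CRABP2 is among them by choice, and of the other 7 genes 3 passed. In shAMB 6 of 8 passed (5 higher, 1 lower), or 5 of 7 without CRABP2, where 66% of all genes did (37.6% higher, 28.4% lower). In tumors 5 of 8 passed (4 higher, 1 lower) where 41.1% did (21.2% higher, 19.9% lower). The shares of members are read against these backgrounds and single out no member. Without the third doxycycline library of sh4, 5 of 8 passed there (3 higher, 2 lower), CRABP2 included. Calls over all genes were not counted for fits with a library left out, here or below. With the empty vector 0 of 8 passed (0 at an unadjusted p under 0.05, 0 with DESeq2), where 0.0939% of genes did in edgeR. Of all 14905 genes, 879 lay under that unadjusted p and 20 were called with DESeq2.

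Among the 7 tested genes other than CRABP2, the tests of difference called 1 for sh4 against EV (RXRB, beside 32.6% of all genes), 3 for shAMB against EV (CRABP1, CYP26B1 and RARB, beside 45.5%) and 5 for sh4 against shAMB (CRABP1, CYP26B1 and RARA lower and RARB and RARG higher in sh4, beside 60.9%). Over all 8 tested genes, CRABP2 among them, the count for sh4 against shAMB was also 5. Without the third doxycycline library of sh4 that count over 8 genes was 7, CRABP2 included, whose values there chose it. The RARA difference of −1.02 ± 0.32 (adjusted p = 0.0112) was −0.022 after removal of GC and length trends. With that removal CRABP1 (0.60, adjusted p = 1.13e-08) and RXRA (0.38, adjusted p = 0.00258) also passed in edgeR for sh4 against EV. So did RARG (−0.60, adjusted p = 1.87e-05) and RXRB (−0.74, adjusted p = 5.39e-09) for shAMB against EV. For sh4 against shAMB, RXRA (0.47, adjusted p = 0.000216) and RXRB (0.40, adjusted p = 8.89e-06) passed with their direction turned. Before induction no member differed past the threshold between a hairpin line and the empty vector line in edgeR, where 1.12% of genes did for sh4 and 1.52% for shAMB. At an unadjusted p under 0.05 there were 4 of 8 for sh4 and 2 of 8 for shAMB, beside 4180 and 1639 of all 14905 genes. For sh4 they were CRABP1, RARG, RXRB and CRABP2, which shares the DMSO libraries that chose it, each higher in sh4. For shAMB they were CRABP1 and RARB, each higher in shAMB. DESeq2 called 3 and 0 members, beside 351 and 294 of all genes. Without the third EV library with DMSO the count for sh4 was 3 in edgeR.

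The median log2 fold change of the 8 tested genes was 0.32 for sh4, 0.57 for shAMB, 0.22 for EV and 0.41 for tumors. Over all genes it was −0.00, 0.10, 0.01 and 0.02. These medians leave out the 2 genes that failed the filter. In sh4 and shAMB they include CRABP2, whose values there chose it, so those 2 medians are a description. The order of the members per length was the same by the deposited TPM values, which are scaled for transcript length and depth, in 6 of 8 groups, and in the other two 8 of the 10 genes kept their rank.

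Genes around the pathway were taken from a list of 60, of which 39 passed the filter in culture and 39 in tumors. With sh4 19 of the 39 changed (15 up, 4 down), with shAMB 25 (18 up, 7 down) and between tumors 20 (14 up, 6 down), beside 40.9%, 66% and 41.1% of all genes. In EV 0 changed in edgeR (2 at an unadjusted p under 0.05 and 0 with DESeq2, beside 879 and 20 of all 14905 genes). The median log2 fold change was 0.13, 0.20 and 0.11 in sh4, shAMB and tumors, beside −0.00, 0.10 and 0.02 over all genes. Without the third doxycycline library of sh4, 23 of the list changed there.

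Genes of ligand supply were measured next. Of the 3 retinal dehydrogenases, which make retinoic acid, only ALDH1A3 passed the filter. It rose 1.62-fold in sh4 (1.90 ± 0.212 to 3.07 ± 0.142 CPM, SD, n = 3, adjusted p = 0.000202, edgeR) and was 2.96 ± 0.104 and 2.75 ± 0.296 CPM in shAMB (SD, n = 3). In tumors it rose 2.55-fold, from 4.96 ± 0.839 to 12.6 ± 4.25 CPM (SD, n = 4, adjusted p = 0.00142). STRA6, the cell surface receptor for vitamin A carried in blood, rose 2.36-fold in shAMB (52.0 ± 6.66 to 122.7 ± 23.0 CPM, SD, n = 3, adjusted p = 0.000374). It was 87.1 ± 21.9 and 85.9 ± 32.8 CPM in sh4. AKR1B1, an aldehyde reductase able to use retinal, fell by 1.60 on the log2 scale in shAMB (adjusted p = 5.72e-12), by 1.70 in tumors (adjusted p = 2.61e-06) and by 0.35 in sh4 (adjusted p = 0.000201). Its level was 268.6 ± 14.7 and 88.5 ± 1.86 CPM in shAMB and 188.6 ± 14.6 and 57.9 ± 4.04 CPM in control and KO tumors.

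Of 21 genes known to be induced by retinoic acid 13 passed the filter. With sh4 10 rose and 1 fell, with shAMB 7 rose and 2 fell, and in KO tumors 6 rose and 1 fell, beside 22.9%, 37.6% and 21.2% of all genes that were higher and 18%, 28.4% and 19.9% that were lower. Their median log2 fold changes were 0.37, 0.20 and 0.36, and those of all genes −0.00, 0.10 and 0.02. NAV2, a guidance protein of growing neurites, rose 5.75-fold in shAMB (5.92 ± 0.363 to 34.1 ± 3.08 CPM, SD, n = 3, adjusted p = 3.15e-12) and 4.01-fold in tumors (adjusted p = 9.56e-06), and was 6.79 ± 0.243 and 7.88 ± 0.609 CPM in sh4.

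RET, the receptor kinase for glial cell line-derived factors, followed the same course. It rose 2.51-fold in shAMB (adjusted p = 4.70e-12) and 2.91-fold in tumors (adjusted p = 8.44e-06), and was 373.9 ± 18.7 and 413.5 ± 23.2 CPM in sh4 (SD, n = 3), a small rise that passed. NTRK2, the receptor for brain-derived neurotrophic factor, rose 6.31-fold in sh4 from a low level (0.371 ± 0.0947 to 2.37 ± 0.163 CPM, adjusted p = 5.28e-07, edgeR) and 2.05-fold in tumors (adjusted p = 0.0392), and was 0.369 ± 0.0211 and 0.303 ± 0.0978 CPM in shAMB. With the empty vector it read 0.242 ± 0.113 and 0.712 ± 0.189 CPM without overlap (1.52 ± 0.31, adjusted p = 0.122). NEDD9, a scaffold protein of cell adhesion, rose 2.98-fold in sh4 (12.0 ± 0.588 to 35.7 ± 2.22 CPM, adjusted p = 1.79e-10, edgeR). ZNF703, GPRC5A and SOX9 rose 3.38-, 2.44- and 2.30-fold in shAMB.

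All 10 corepressors and coactivators of the receptors were measured. With shAMB 8 of them rose and 0 fell, with sh4 2 rose (CREBBP and NCOA3) and 2 fell (EP300 and NCOA2), and in KO tumors 4 rose and 1 fell. Of all genes 66%, 40.9% and 41.1% changed in these comparisons, and 37.6%, 22.9% and 21.2% of all genes were higher. RXRG, the RXR form not among the members, had group means under 1 CPM throughout.

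The genes most like CRABP2 over the 18 culture libraries, among 12709 with a mean of at least 1 CPM, were ZBTB4 (Pearson r = 0.986 of log2 CPM), CACNA1C (0.986), RGAG4 (0.983), TAP2 (0.980) and ARHGEF10 (0.980). The libraries share the split between induced hairpins and the rest, and its part in this likeness was not tested. They include the libraries that chose CRABP2, so the culture values of these genes are a description. TAP2, a peptide transporter of antigen presentation, had log2 fold changes of 2.33 in sh4, 3.14 in shAMB and 2.92 in tumors, and CACNA1C, a calcium channel subunit, 1.07, 1.20 and 0.99. ARHGEF10 did not pass in tumors (0.22, adjusted p = 0.0854). Among the members themselves CRABP1 (0.809) and CYP26B1 (0.807) were closest to CRABP2. How many of the 12709 genes reached these values was not counted.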

How the data were processed

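RNA of 18 cultures and 8 xenografts was made into libraries with a kit for stranded total RNA, and polyA RNA is named too (per the labels). The submitters' processing notes name STAR, SAMtools, RSEM and hg38. Their versions and the strand setting for these libraries are not given in the sources used here, since the study's methods state versions for mouse ganglia. The authors deposited RSEM expected counts (91.8% and 91.0% whole within 1e-06), TPM values and gene lengths. Members and lists were chosen with earlier results of these data known.

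Expected counts were rounded, filtered with filterByExpr (14905 genes kept in culture, 15960 in tumors), normalized by TMM and tested by edgeR 4.0.16 (quasi-likelihood, R 4.3.3), with all groups of a table in 1 fit and Benjamini-Hochberg adjustment over all genes at 0.05. In simulated data, changes of 1 log2 unit were called in 95.5% (sh4, 14640 genes) and 80.6% (tumors, 15847 genes) of cases. Changes of 0.5 log2 units were called in 67.2% and 32.8%. The simulation changed few genes, all of at least 1 CPM, and held no GC tilt. The real libraries differ in these points, so the shares do not carry over to them, nor to RARB in culture. CPM divided counts by the total over the kept genes times the TMM factor, and CPM per kb also by the deposited length. Only the GC tilt used raw totals. Coordinates, overlaps and GC content (longest transcript) are from GENCODE v44 (GRCh38). The GC tilt used genes of at least 1 mean CPM and a pseudocount of 0.5. Alternatives were RLE, DESeq2 1.42.0, no filter, a replicate block, a limit of 1 log2 unit, offsets for GC and length (known for 91.1% and 89.9% of genes), TPM ranks and leaving out each library. Pathway genes were named at 0.05, 1 log2 unit and 1 mean CPM, with other values of named genes set beside, and the 5 genes most like CRABP2 were named.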

Additional observations from a re-analysis of the deposited data

Results flagged for a closer look

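The following differences between the effects of doxycycline in 2 lines passed the interaction contrast in edgeR, given in log2 units. RXRB had an effect lower by 0.73 in sh4 than in the empty vector line (value −0.73). CRABP1 had an effect higher by 1.52 in shAMB than in the empty vector line. RARB differed in the same pair of lines by −1.14. CYP26B1 differed there by 1.74. Between sh4 and shAMB, CRABP1 differed by −1.49. RARA differed by −1.02 between them. RARB differed by 1.18. RARG differed by 0.69. CYP26B1 differed by −1.21. CRABP2 is left out because its contrasts chose it.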

How the results depend on the processing

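Of 952 values recomputed under an alternative, 853 kept direction and side of the threshold. The cause of the other changes was not tested, except that a limit of 1 log2 unit leaves fewer genes by construction. With that limit 1 member was counted in sh4, 3 in shAMB, 2 in tumors and 1 for sh4 against EV. Pathway genes numbered 3, 8 and 8 in sh4, shAMB and tumors. Calls over all genes were not counted at that limit. The 1 member in sh4 and in sh4 against EV was CRABP2, which these values chose, and the member counts below include it. With GC and length trends removed 7 members were counted in sh4, 6 for sh4 against EV and 2 in each uninduced comparison. Pathway genes numbered 30 in sh4 and 1 in EV. Of all 13573 genes tested with that setting, 7733 were called in sh4, 6290 for sh4 against EV and 62 in EV. In the uninduced comparisons 831 were called for sh4 and 839 for shAMB. DESeq2 called 3 members for uninduced sh4 against EV, beside 351 of all 14905 genes.

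Directions turned with GC and length trends removed, in log2 units, for RARA (−0.13), RARG (−0.61) and RXRA (−0.23) in shAMB, for CRABP1 (−0.074), CRABP2 (−0.17), RARG (−0.0082) and RXRA (−0.14) in EV, for RARB (−0.13) and RXRA (0.38) in sh4 against EV, for RARA (−0.14) and RXRA (−0.089) in shAMB against EV, for CRABP2 (0.047), RXRA (0.47) and RXRB (0.40) in sh4 against shAMB, for RARA (−0.12) and RXRA (−0.13) in uninduced sh4, and for RXRA (0.046) and RXRB (0.056) in uninduced shAMB. RARG in shAMB was −0.052 with RLE and DESeq2 and −0.023 without a filter, and CRABP2 in EV was −0.016 with RLE and DESeq2.

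Leaving out each library gave values on both sides of 0 for RXRA in sh4 (−0.20 to 0.18), RARG in shAMB (−0.077 to 0.093), CRABP2 (−0.13 to 0.16) and RXRA (−0.0050 to 0.15) in EV, RARA (−0.35 to 0.069), RARB (−0.038 to 0.23) and RARG (−0.069 to 0.24) in tumors, CRABP1 (−0.12 to 0.15), RARB (−0.12 to 0.27) and RXRA (−0.28 to 0.10) in sh4 against EV, and CRABP2 (−0.016 to 0.29), RXRB (−0.17 to 0.048) and CYP26B1 (−0.13 to 0.10) in uninduced shAMB. Members counted in uninduced sh4 ranged from 0 to 3.

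Same-numbered libraries correlated between −0.51 and 0.35 in their deviations from the group mean. With so few libraries per group this cannot show whether they were paired, and the main fit did not pair them. The replicate block gave 1 pathway gene in EV. It also gave 6 members in place of 5 for sh4 against shAMB, with CRABP2, whose values there chose it, as the member added. It called 15 and 9003 of all 14905 genes in these 2 comparisons. Low counts limit RARB in culture, and DHRS3 and CYP26A1 throughout.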
